A study of Mus musculus with 14 samples.

Results

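The genes described here encode the insulin-like growth factors (IGFs), their receptors and their binding proteins. They were taken by symbol from the deposited RNA-SEQ counts of P2 mouse brains, and all 10 listed genes (Igf1, Igf2, Igf1r, Igf2r, Insr, Igfbp2, Igfbp3, Igfbp4, Igfbp5 and Igfbp7) were found among the 17927 genes of the table. The question was which of them differed between WT brains and brains without Capn15, a calpain-family cysteine protease, and how they varied between litters and sexes.

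The brains came from 7 WT and 7 Capn15 KO mice, untreated, at postnatal day 2, from 6 litters named A to F in the headers of the counts. The study's methods say that its lines were made with C57BL/6J mice and name a line with lacZ-Neo in Capn15 and a floxed line. Which of them gave these brains is not given in the sources used here, nor is any promoter that would limit the loss to a cell type. There were 2 female and 5 male WT brains, and 4 female and 3 male Capn15 KO brains. Each Capn15 KO brain had a WT brain of its litter with the same replicate number, and in pairs 1 to 6 the brains of a pair were of opposite sex. Litter B held 2 brains of each genotype, and nothing but the replicate number matches them. Pairs 2 and 3 are therefore arbitrary, and the counts of pairs below can depend on this match. The labels call the cell type neurons, but whole brains were used, and markers of choroid plexus, leptomeninges, vessels, microglia and red blood cells were all detected beside those of neurons. In such tissue, fewer cells of a type and less RNA per cell cannot be told apart.

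IGF1 and IGF2 are secreted growth factors. Both signal through the IGF1 receptor, a tyrosine kinase close in structure to the insulin receptor, and activate the PI3K-AKT and MAP kinase pathways, while the IGF2 receptor takes up IGF2 and sends it to lysosomes. IGF-binding proteins hold the ligands outside the cell and set how much of them is free, until proteases release the ligand. In the developing brain, Igf2 is known for its expression in choroid plexus, leptomeninges and blood vessels, and Igf1 is made by neurons and glia and supports the growth and survival of neurons and of myelin-forming cells.

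Total counts per library lay between 37620954 and 70910163, and 3 counts in the smallest library equal 0.0797 CPM, where CPM is the count per 1000000 counts after scaling with TMM factors. Every gene described here was far above this limit, with at least 214 counts in each library. The transcript of the targeted gene, Capn15, was at 25.4 ± 3.07 CPM in WT and 14.5 ± 2.67 CPM in Capn15 KO (mean ± SD, n = 7 each). The libraries labelled WT 7 and Capn15 KO 7, both of litter F, went against this difference, with 18.7 and 20.2 CPM, and they are named below as labelled. The fitted genotype changes of the listed IGF genes are therefore also given without litter F. So are the litter results of the receptors, Igfbpl1 and H19. The Pearson correlations over all libraries with cell markers, with gene length and between listed genes are given both ways too. Genotype changes of other genes except Ttr, sex changes, litter means of Igf2 and the genes most like each member were not checked in this way. In edgeR's quasi-likelihood test with litter and sex as covariates, 1 of 17927 genes differed between the genotypes at an FDR (the Benjamini-Hochberg adjusted p) under 0.05. This gene, Ptgds, which encodes a prostaglandin synthase, was lower in Capn15 KO, with a log2 fold change of -0.38 ± 0.05 (SE; FDR = 0.0398). Capn15 itself had a log2 fold change of -0.81 ± 0.12 (SE) and was not called in this test (FDR = 0.0747). A gene without a call here may therefore still differ. The study's own edgeR analysis with sex and litter reported more genes as changed. Capn15 and Ptgds were among them, both with larger fold changes than here.

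Per length, 4 of the 5 binding proteins were the most abundant transcripts of the family and the ligands the least abundant. Levels were compared as CPM per kb of annotated exon, over all 14 libraries, since counts alone favour long genes. Igfbp2, a binding protein with a preference for IGF2, was highest at 70.2 CPM per kb, with libraries between 63.5 and 78.6. Igfbp5, a binding protein that also attaches to extracellular matrix, came next at 30.5 CPM per kb, then Igfbp7, a secreted protein of vessels with low affinity for IGFs, at 18.6 and Igfbp4, a binding protein that the protease PAPP-A cleaves, at 15.1 CPM per kb. Igf2r was at 11.7 and Igfbp3, the main carrier of IGFs in serum, at 11.6 CPM per kb. Insr was at 6.67 and Igf1r at 5.51 CPM per kb. The ligands were lowest, with Igf1 at 2.96 and Igf2 at 1.01 CPM per kb.

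**Figure D1:**
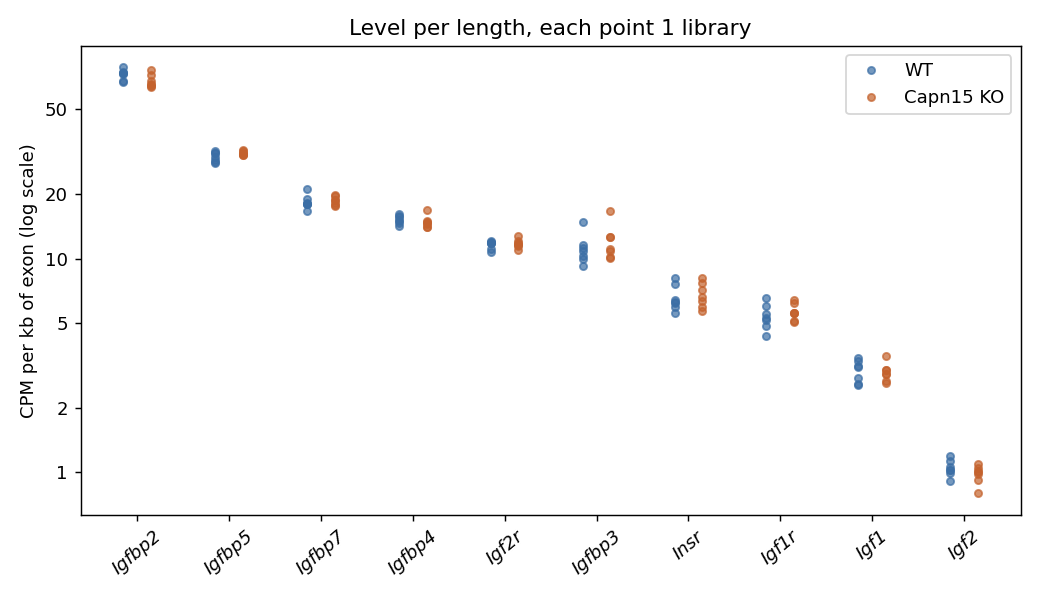
Level of each gene as CPM per kb of annotated exon, on a log scale, with 1 point per library, WT in blue and Capn15 KO in orange, ordered by the mean over 14 libraries. Igfbp2 is highest, at 70.2 CPM per kb, and Igf2 lowest, at 1.01 CPM per kb.

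Most steps of this order held in each library. In 8 of the 9 comparisons between neighbours the first gene was above the second in 14 of 14 libraries, although the ranges of Igfbp7 and Igfbp4 and of Insr and Igf1r overlapped across libraries. Igf2r and Igfbp3 could not be ordered, since Igf2r was the higher of the pair in 9 of 14 libraries. The exon length counts every annotated exon, 9.904 kb for Igf1 and 16.791 kb for Igf1r, so that genes with exons not used in this tissue appear lower than they are.

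The genes lie on 7 chromosomes of GRCm38. Igf2 and Igf1r are both on chromosome 7, Igfbp3 and Igfbp4 both on chromosome 11, and Igfbp2 (chromosome 1, 72824503 to 72852474, forward strand) and Igfbp5 (72857932 to 72874884, reverse strand) are neighbours whose 3′ ends face each other across 5457 bases. The count of Igf2 (chromosome 7, 142650766 to 142666816, reverse strand) is uncertain. In GENCODE M21 a readthrough gene on the same strand, Gm49394, which was not analysed here, holds 3596 of the 5723 exon bases of Igf2 (62.8%) and 546 of its 678 coding bases (80.5%). How the counting treated reads that fall in both genes is not given in the sources used here, and a counter that drops ambiguous reads would leave Igf2 with reads from the rest of its exons. The level of Igf2 set beside the other genes is limited by this. The exons of Igfbp7 share 85 bases with those of Polr2b on the other strand, 7.03% of its exon bases. The other 8 genes shared no exon base with another annotated gene.

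Sequences just upstream of the RefSeq start are shown for the members on which the results below turn and that have a window in the RefSeq table, namely Igf1r and Igf2r, which varied between litters, and Igfbp2, which had the smallest p for genotype. Insr had no entry. Each is 250 bases on GRCm38.p6, 5′ to 3′ on the strand of the gene. Capitals mark GGGCGG, the core of a GC box, or its complement CCGCCC.

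Igf1r, chr7:67952007-67952256, forward strand: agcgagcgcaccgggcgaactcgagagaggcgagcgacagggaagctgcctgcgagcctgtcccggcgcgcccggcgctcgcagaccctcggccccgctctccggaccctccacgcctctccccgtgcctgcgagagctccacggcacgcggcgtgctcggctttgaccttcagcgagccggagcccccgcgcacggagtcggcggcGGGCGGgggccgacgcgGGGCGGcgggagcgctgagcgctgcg

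Igf2r, chr17:12769707-12769956, reverse strand: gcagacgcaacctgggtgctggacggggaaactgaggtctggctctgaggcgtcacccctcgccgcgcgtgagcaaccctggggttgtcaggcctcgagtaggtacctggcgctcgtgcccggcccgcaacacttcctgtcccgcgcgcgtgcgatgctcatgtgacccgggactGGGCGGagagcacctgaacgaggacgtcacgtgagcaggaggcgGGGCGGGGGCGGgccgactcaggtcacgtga

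Igfbp2, chr1:72824230-72824479, forward strand: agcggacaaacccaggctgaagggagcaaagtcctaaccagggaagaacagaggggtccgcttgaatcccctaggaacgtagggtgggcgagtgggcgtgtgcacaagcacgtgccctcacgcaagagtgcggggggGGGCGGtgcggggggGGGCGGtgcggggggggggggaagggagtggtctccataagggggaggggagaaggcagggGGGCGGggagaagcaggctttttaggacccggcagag

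Igfbp2 has a second RefSeq start, whose window (chr1:72825137-72825386) held 0 copies of GGGCGG. The windows shown held 2, 3 and 3 copies of GGGCGG on either strand, and none held TATAAA. Among 13 windows of 9 members, GGGCGG was found in 6 windows of 5 members, and among all 32851 RefSeq windows of 250 bases 32.7% held it and 8.47% held 3 or more copies. A match of letters is a description of the window only.

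None of the 10 genes differed between the genotypes at an FDR under 0.05, where the share over all genes was 0.00558%. Igfbp2 and Igf1r had an unadjusted p under 0.05, Igfbp2 with the lower level and Igf1r with the higher level in Capn15 KO, and over all genes 5.14% had such a p. The WT and Capn15 KO libraries overlapped for each of the 10 genes. The median log2 fold change of the 10 genes was 0.02, beside 0.00 over all genes, and the fitted change was positive for 6 and negative for 4. Changes of opposite sign cancel in this median. Without the sign, the median log2 fold change was 0.063 for the 10 genes and 0.025 over the 12176 genes above a set mean CPM, the 10 among them. These sizes include the error of each fit.

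**Figure D2:**
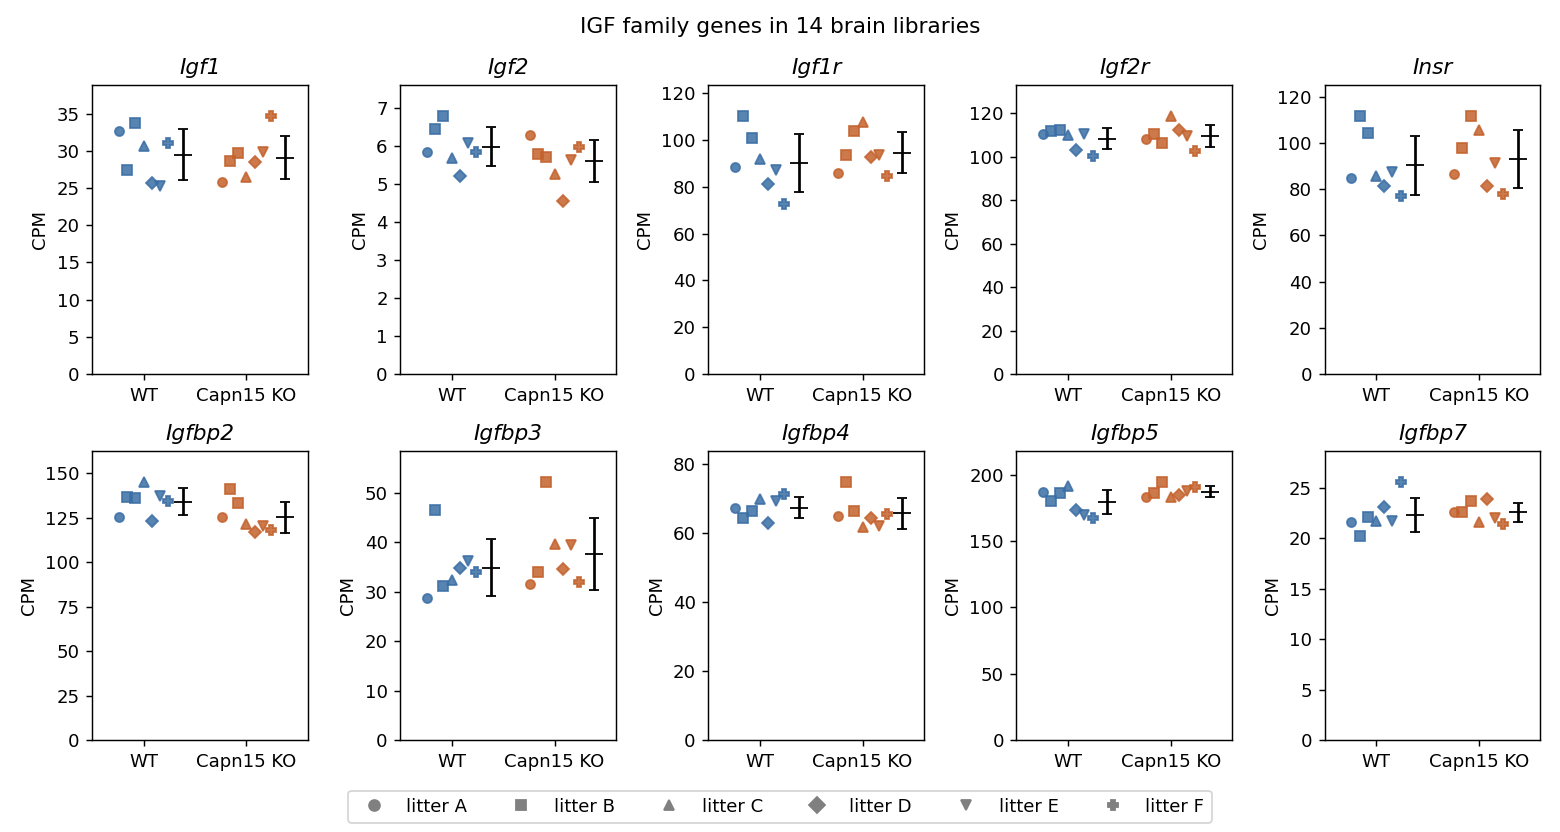
CPM of the 10 genes in each library, with WT in blue, Capn15 KO in orange and the marker giving the litter, and the mean ± SD of 7 libraries as a bar beside them. The ranges of the genotypes overlap in each panel, and the axes start at 0.

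Neither ligand had an unadjusted p under 0.05 for genotype. Igf1 lay between 25.3 and 33.7 CPM in the WT libraries, with a median of 30.6, and between 25.8 and 34.7 CPM in the Capn15 KO libraries, with a median of 28.6. The highest library was Capn15 KO 7 and the lowest WT 6, and Capn15 KO was the higher member of 4 of 7 pairs. The fitted log2 fold change was -0.01 ± 0.07 (SE, n = 7 and 7; exact permutation p = 0.839), with a 95% interval from -10.5% to 10.4%, and it was -0.04 without litter F.

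Igf2, the main IGF of the fetus and a gene that is imprinted in most tissues, with expression from the paternal allele, lay between 5.20 and 6.79 CPM in WT, with a median of 5.85, and between 4.55 and 6.28 CPM in Capn15 KO, with a median of 5.70. The lowest library was Capn15 KO 5, and its litter mate WT 5 was the lowest of the WT libraries. Capn15 KO was lower in 5 of 7 pairs, and the fitted log2 fold change was -0.10 ± 0.06 (SE; exact permutation p = 0.215), with a 95% interval from -14.9% to 2.08%, and -0.13 without litter F. The counts of Igf2 were small, so that counting error alone gave a median coefficient of variation of 6.20% per library, beside 9.57% observed over the 14 libraries. For the other 9 genes counting error was between 1.10% and 3.07%.

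The receptors were fitted above WT in Capn15 KO, with intervals that included no change for Insr and Igf2r. Igf1r, the receptor through which both IGFs act, lay between 72.5 and 110.3 CPM in WT, with a median of 88.3, and between 84.6 and 107.8 CPM in Capn15 KO, with a median of 93.5. The lowest library was WT 7 and the highest WT 2, so that the WT libraries spanned the Capn15 KO libraries. Capn15 KO was higher in 5 of 7 pairs. The fitted log2 fold change was 0.11 ± 0.04 (SE), or 7.94% with a 95% interval from 1.89% to 14.3% and an FDR of 0.784. The two-sided exact permutation test, which ignores litter and sex, gave p = 0.429. The result for Igf1r depended on the covariates. With litter alone as a covariate, or with none, its log2 fold change was 0.07 and its unadjusted p was no longer under 0.05. Without litter F it was 0.09 with an unadjusted p still under 0.05, and without WT 7 alone it was 0.09 with a p above 0.05. These fits are nearly the same, since a brain left alone in its litter adds almost nothing to the genotype change once litter is fitted. Fits below that leave out a brain of litter A, C, D, E or F likewise come close to leaving out the whole litter. Counts of alternative fits are therefore not counts of separate checks.

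Insr, the insulin receptor, lay between 76.8 and 111.6 CPM in WT, with a median of 85.8, and between 77.7 and 111.4 CPM in Capn15 KO, with a median of 91.1. The libraries of litter B were high and those of litter F low in both genotypes. Capn15 KO was higher in 6 of 7 pairs, although in pairs 5 and 7 by less than 0.02 on the log2 scale, and the fitted log2 fold change was 0.07 ± 0.04 (SE; exact permutation p = 0.666), or 0.07 without litter F. When 1 library was left out it lay between 0.0045 (without WT 4 or Capn15 KO 4) and 0.12 (without WT 5 or Capn15 KO 5), and its unadjusted p was under 0.05 in 3 of 25 alternative fits, those without WT 5, Capn15 KO 5 or Capn15 KO 2. Igf2r, the clearance receptor of IGF2, varied least of the receptors, between 100.01 and 112.2 CPM in WT, with a median of 110.2, and between 102.4 and 118.7 CPM in Capn15 KO, with a median of 109.4. The library Capn15 KO 4 was the highest and WT 7 the lowest. The fitted log2 fold change of Igf2r was 0.04 ± 0.02 (SE; exact permutation p = 0.614), and the same without litter F.

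Igfbp2 was the binding protein with the smallest p for genotype. It lay between 123.3 and 145.2 CPM in WT, with a median of 136.4, and between 117.2 and 141.4 CPM in Capn15 KO, with a median of 121.5. All Capn15 KO libraries but 3, those of litters A and B, were below the lowest WT library, WT 5, and Capn15 KO 2 was the only one of its group above its WT pair. Capn15 KO was lower in 6 of 7 pairs. The fitted log2 fold change was -0.12 ± 0.03 (SE), or -7.86% with a 95% interval from -12.5% to -3.00% and an FDR of 0.614. The exact permutation test gave p = 0.0641. Without litter F the log2 fold change was -0.11, and its unadjusted p stayed under 0.05 in each of 25 alternative fits, with the smallest FDR, 0.279, in DESeq2. Many of these fits nearly repeat each other, as for Igf1r.

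The other binding proteins had intervals that included no change. Igfbp5, which lies next to Igfbp2, had its WT libraries between 167.4 and 191.1 CPM, with a median of 179.7, and its Capn15 KO libraries between 182.8 and 194.5 CPM, with a median of 186.1. The libraries WT 5, WT 6, WT 7 and WT 2 were below all Capn15 KO libraries and the other WT libraries were among them. Its fitted log2 fold change was 0.06 ± 0.03 (SE; exact permutation p = 0.0688), opposite in sign to that of Igfbp2, and 0.04 without litter F. When 1 library was left out it lay between 0.03 (without WT 7) and 0.10 (without WT 4 or Capn15 KO 4), and its unadjusted p was under 0.05 in 3 of 25 alternative fits, those without WT 4, Capn15 KO 4 or WT 1.

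Igfbp3 was the most variable gene of the family, with a coefficient of variation of 17.8% over the 14 libraries. It lay between 28.8 and 46.6 CPM in WT, with a median of 33.9, and between 31.5 and 52.2 CPM in Capn15 KO, with a median of 34.5. The highest library of each genotype came from litter B, but WT 2 and Capn15 KO 3 were high while their litter mates of the other genotype with the same numbers, Capn15 KO 2 and WT 3, were not. Its 95% interval, from -7.58% to 24.6%, was the widest of the family (exact permutation p = 0.427). Its log2 fold change, 0.10 ± 0.10 (SE), lay between 0.03 (without WT 4 or Capn15 KO 4) and 0.15 (without WT 2 or Capn15 KO 2) when 1 library was left out, with 0.05 without WT 3 and 0.04 without Capn15 KO 3, and was 0.14 without litter F.

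Igfbp4 lay between 62.9 and 71.2 CPM in WT, with a median of 67.3, and between 61.7 and 74.9 CPM in Capn15 KO, with a median of 65.1, and its highest library was Capn15 KO 2. Its log2 fold change was -0.05 ± 0.04 (SE; exact permutation p = 0.392), or -0.04 without litter F. Igfbp7 lay between 20.2 and 25.6 CPM in WT, with a median of 21.8, and between 21.4 and 23.9 CPM in Capn15 KO, with a median of 22.6, with WT 7 as the highest and WT 2 as the lowest library. Its log2 fold change was 0.00 ± 0.05 (SE; exact permutation p = 0.696), or 0.05 without litter F.

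**Figure D3:**
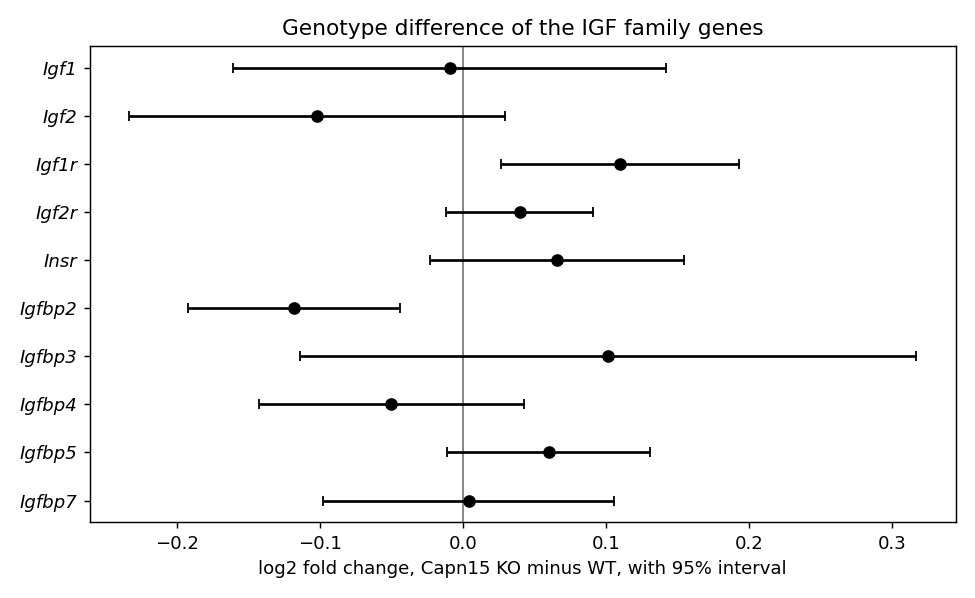
Fitted log2 fold change of each gene, Capn15 KO minus WT, from the model with litter and sex, with its 95% interval (n = 7 and 7 libraries). The intervals of Igf1r (0.03 to 0.19) and Igfbp2 (-0.19 to -0.04) do not include 0, and neither gene passed the adjustment over 17927 genes.

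Choroid plexus markers were examined beside Igfbp2, since their summed level was lower in Capn15 KO in each pair. Of 14 choroid plexus genes, 10 had an unadjusted p under 0.05 with the lower level in Capn15 KO and 1 with the higher level, none with an FDR under 0.05, and their median log2 fold change was -0.21. Over all genes 2.26% had such a p with the lower level in Capn15 KO. Their summed level lay between 894 and 1152 CPM in WT and between 743 and 1005 CPM in Capn15 KO, it was lower in Capn15 KO in 7 of 7 pairs, pair 2 with the higher Igfbp2 in Capn15 KO included, and none of the 14 genes was at 0. Most of this sum was Ttr, on average 846 of 1068 CPM in WT and 680 of 875 CPM in Capn15 KO. Ttr by itself was lower in 7 of 7 pairs, so that the sum describes this gene more than the list. Without litter F, 8 of the 14 genes had such a p with the lower level in Capn15 KO and 0 with the higher level, and the sum was lower in 6 of 6 pairs. Over all 17927 genes, 344 had such a p with the lower level in that fit and 7 had an FDR under 0.05. Ttr alone of the 14 then passed the threshold over all genes (log2 fold change -0.27 ± 0.04 (SE), edgeR FDR = 0.0486). With all 14 libraries Ttr, the thyroxine carrier that marks this epithelium, had 846 ± 74.1 CPM in WT and 680 ± 84.2 CPM in Capn15 KO (SD, n = 7 each), a log2 fold change of -0.32 ± 0.05 (SE; FDR = 0.0942). Enpp2, which encodes the lysophospholipase autotaxin, had a log2 fold change of -0.20 ± 0.03 (SE; FDR = 0.166).

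Across the 14 libraries, log2 CPM of Igfbp2 went with the mean log2 CPM of the choroid plexus markers at Pearson's r = 0.762 (permutation p = 0.00156, adjusted p = 0.0312 over 80 relations of 10 genes with 8 marker lists) and Spearman's rho = 0.705 (permutation p = 0.00636, adjusted p = 0.0626). Without the 2 libraries farthest from the median of the markers r was 0.611, and within litters it was 0.659. Values within litters, here and below, have the litter means subtracted and still hold the genotype difference. Igfbp2 and the summed level of the markers were both lower in Capn15 KO in most pairs. The pooled r holds this difference too, and taking up this list for its lower level in Capn15 KO favours a positive pooled r. Neither the pooled r nor the r within litters is therefore a test of their relation apart from genotype. Without litter F r was 0.709 (n = 12, permutation p = 0.00895). Within the WT libraries r was 0.867 (n = 7, exact permutation p = 0.0163) and within the Capn15 KO libraries it was 0.532 (n = 7, exact permutation p = 0.200). By rank, rho was 0.821 in WT (exact permutation p = 0.0341) and 0.607 in Capn15 KO (exact permutation p = 0.167). Littermates are not independent and the pooled permutations ran across genotypes, so that the pooled p-values are too small. Igfbp2 also went with the leptomeninges markers at r = 0.729 (permutation p = 0.00311, adjusted p = 0.0483) and rho = 0.719 (permutation p = 0.00513, adjusted p = 0.0626), with r = 0.817 without the 2 farthest libraries, 0.707 without litter F and 0.538 within litters. Within the WT libraries this r was 0.719 (n = 7, exact permutation p = 0.0663) and within the Capn15 KO libraries 0.866 (n = 7, exact permutation p = 0.0167). The rank correlation was weaker in both, with rho = 0.500 in WT (exact permutation p = 0.267) and 0.571 in Capn15 KO (exact permutation p = 0.200). Of 14 leptomeninges genes, 3 had an unadjusted p under 0.05 with the lower level in Capn15 KO and 0 with the higher level, and their summed level lay between 437 and 640 CPM in WT and between 493 and 625 CPM in Capn15 KO. For Igf2 the relation with choroid plexus markers did not pass the adjustment, with r = 0.599 (permutation p = 0.0234, adjusted p = 0.136) and rho = 0.415 (permutation p = 0.140, adjusted p = 0.532), and r was 0.484 without the 2 farthest libraries, 0.732 without litter F and 0.583 within litters. Its rho without litter F was 0.483 (permutation p = 0.118). Within WT its r was 0.736 (n = 7, exact permutation p = 0.0581) and its rho 0.643 (exact permutation p = 0.139). Within Capn15 KO its r was 0.385 (n = 7, exact permutation p = 0.404) and its rho -0.107 (exact permutation p = 0.840). The part of these cells in the values of Igfbp2 and Igf2 was not tested.

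**Figure D4:**
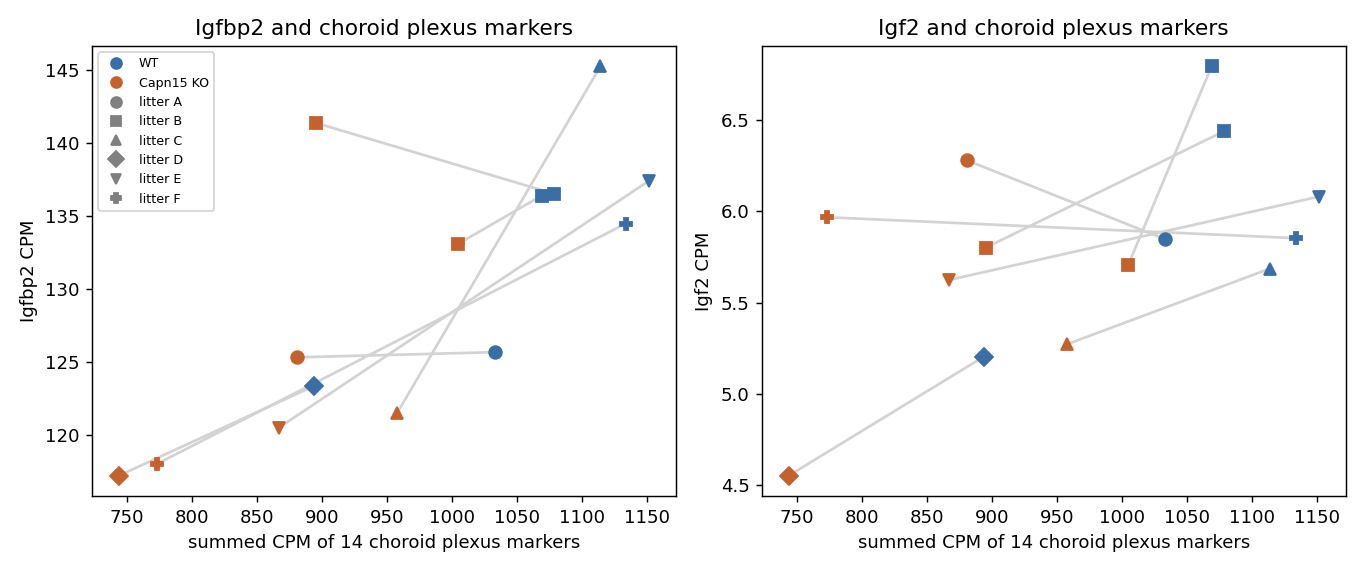
CPM of Igfbp2 (left) and Igf2 (right) against the summed CPM of 14 choroid plexus markers, 1 point per library, with WT in blue, Capn15 KO in orange, the marker giving the litter and a line joining same-numbered libraries. The marker sum, most of which is Ttr, is lower in Capn15 KO in 7 of 7 pairs, and Igfbp2 in 6 of 7. The vertical axes do not start at 0.

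The 3 receptors differed between litters. In the joint test of the 6 litters in the same model, 3 of the 10 genes had an FDR under 0.05, where the share over all genes was 29.6%, so that the count is near that of all genes. They were the 3 receptors, Insr (FDR = 0.000692), Igf1r (FDR = 0.00156) and Igf2r (FDR = 0.0323). Insr went from a litter mean of 77.3 CPM in litter F to 106.3 CPM in litter B, a ratio of 1.38. Igf1r went from 78.5 CPM in litter F to 102.1 CPM in litter B, a ratio of 1.30, and Igf2r from 101.2 CPM in litter F to 114.3 CPM in litter C, a ratio of 1.13. For Insr and Igf1r the order of the litters was the same, with B highest, then C, E, A and D, and F lowest, although the means of A and D differed by less than 0.1 CPM for Igf1r. Without litter F, Insr and Igf1r (FDR = 0.0140) were still below the threshold while Igf2r was not (FDR = 0.552). The ratio of the highest to the lowest litter mean was then 1.31 for Insr, 1.17 for Igf1r and 1.06 for Igf2r, with litter D lowest for each. No ligand or binding protein among the 10 genes passed this test, with Igf2 at FDR = 0.115 and Igfbp2 at 0.131.

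Litter means spanned a wider range for Igfbpl1 and H19, the most abundant transcripts per length of their lists. Igfbpl1, an IGFBP-like gene of newborn neurons, had litter means between 50.9 and 109.2 CPM (FDR = 4.28e-06), and H19, the maternally expressed long RNA that shares control elements with Igf2 and lies 72622 bases from it, between 54.0 and 145.7 CPM (FDR = 4.69e-06). Without litter F the lowest mean of Igfbpl1 was 54.5 CPM, in litter A, and that of H19, in litter D, was the same. Both were highest in litter B, then C, then E, as were Insr and Igf1r. For genotype, the log2 fold change was 0.00 ± 0.05 (SE; exact permutation p = 0.977) for Igfbpl1 and -0.09 ± 0.06 (SE; exact permutation p = 0.809) for H19. The litter means of Igf2 lay between 4.88 CPM in litter D, where H19 was lowest too, and 6.18 CPM in litter B, but litter A, with 6.06 CPM of Igf2, was among the low litters of H19. What sets the litters apart, such as the hour of birth or the day of dissection, is not given in the sources used here, and these cannot be told apart.

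**Figure D5:**
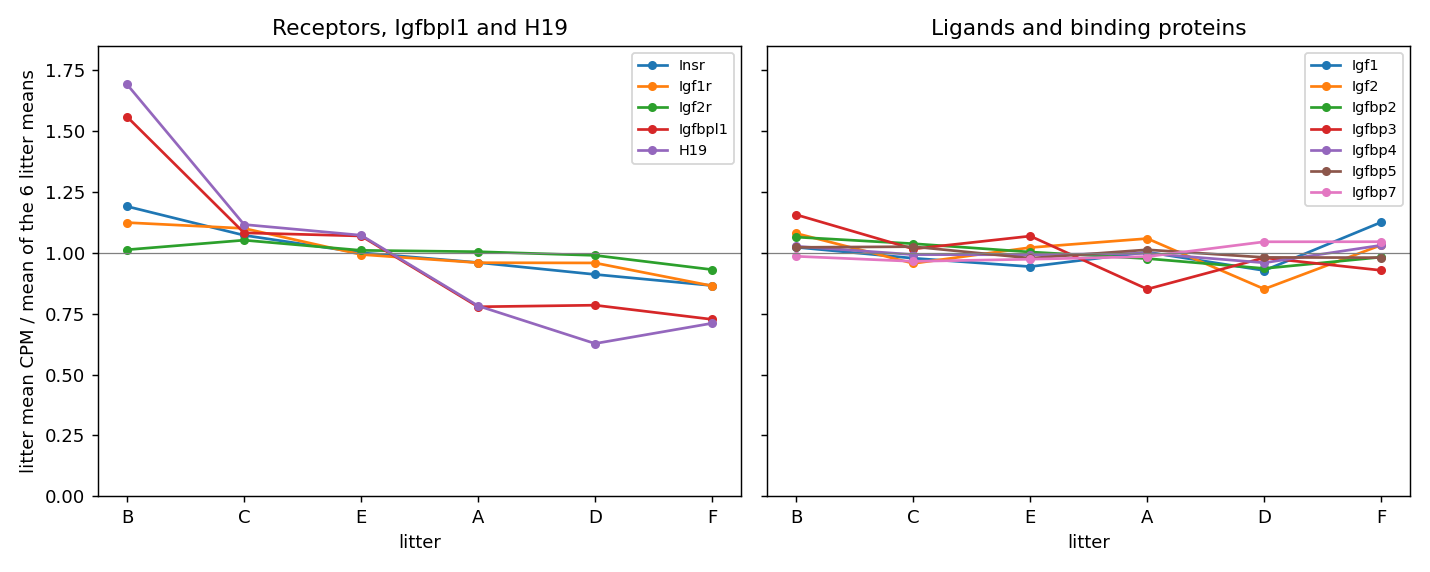
Litter mean CPM divided by the mean of the 6 litter means, for the receptors with Igfbpl1 and H19 (left) and for the ligands and binding proteins (right), with litters B, C, E, A, D and F from left to right (n = 4 libraries in litter B, 2 in each other). Insr, Igf1r, Igfbpl1 and H19 are highest in litter B and lower in A, D and F.

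Insr and Igf1r moved together across libraries. Of the 45 pairs among the 10 genes, this one had the highest correlation of log2 CPM, with r = 0.899 (permutation p = 2.00e-05, adjusted p = 0.000900) and rho = 0.908 (permutation p = 4.00e-05, adjusted p = 0.00180), and r was 0.882 without the 2 libraries farthest from the median of Igf1r and 0.741 within litters. Igf1r and Igf2r (r = 0.768, permutation p = 0.00147, adjusted p = 0.0265; rho = 0.697, permutation p = 0.00726, adjusted p = 0.109) and Igfbp2 and Igfbp4 (r = 0.741, permutation p = 0.00177, adjusted p = 0.0265; rho = 0.745, permutation p = 0.00272, adjusted p = 0.0612) passed the adjustment by r and not by rho. Within litters r was 0.647 for Igf1r and Igf2r and 0.814 for Igfbp2 and Igfbp4. Without litter F the r of these pairs was 0.899, 0.605 and 0.781 in the order given. The neighbours Igfbp2 and Igfbp5 were not among these pairs. Libraries of a litter are not independent, so that the pooled p-values here and in the next paragraph, adjusted or not, are too small.

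Igf1r and Insr have the longest exon length of the family, and libraries differed in the level of long against short genes. Over 10553 genes with at least 10 CPM, the median difference between the tenth with the longest exons (10.9 kb or more) and the tenth with the shortest (2.08 kb or less) lay between -0.08 (WT 7) and 0.08 (Capn15 KO 4) on the log2 scale. Igf1r went with this value at r = 0.611 (permutation p = 0.0203, adjusted p = 0.0608 over 3 receptors; rho = 0.596, permutation p = 0.0272, adjusted p = 0.0695), and r was 0.355 without the 2 farthest libraries and 0.810 within litters. For Insr r was 0.477 (permutation p = 0.0854, adjusted p = 0.0854; rho = 0.503, permutation p = 0.0695, adjusted p = 0.0695) and for Igf2r 0.547 (permutation p = 0.0428, adjusted p = 0.0642; rho = 0.538, permutation p = 0.0504, adjusted p = 0.0695). Without the 2 farthest libraries r was 0.272 for Insr and 0.183 for Igf2r, and within litters it was 0.741 and 0.545. Without litter F r was 0.495 for Igf1r (permutation p = 0.102), 0.394 for Insr (permutation p = 0.201) and 0.454 for Igf2r (permutation p = 0.138). None of the 3 relations passed the adjustment, and each rests in part on those libraries. Of the 80 relations with marker lists, 6 passed the adjustment by r and 4 of these by rho as well, and 4 of the 6 were of Insr or Igf1r. Insr had r = -0.880 with the neuron markers (permutation p = 1.00e-04, adjusted p = 0.00800; rho = -0.820, permutation p = 0.000480, adjusted p = 0.0384), r = -0.789 without the 2 farthest libraries, r = -0.901 without litter F and r = -0.429 within litters. Igf1r had r = -0.797 with the radial glia and astrocyte markers (permutation p = 0.000730, adjusted p = 0.0200; rho = -0.776, permutation p = 0.00162, adjusted p = 0.0432), r = -0.598 without the 2 farthest libraries, r = -0.693 without litter F and r = -0.726 within litters. Insr also went with the radial glia and astrocyte markers at r = -0.781 (permutation p = 0.000750, adjusted p = 0.0200; rho = -0.767, permutation p = 0.00219, adjusted p = 0.0438) and with the red blood cell markers at r = 0.727 (permutation p = 0.00362, adjusted p = 0.0483; rho = 0.793, permutation p = 0.00109, adjusted p = 0.0432). Without the 2 farthest libraries r was -0.659 and 0.737, without litter F -0.697 and 0.693, and within litters it was -0.583 for the former and turned to -0.254 for the latter, so that the relation with red blood cell markers did not hold within litters. For Igf1r and Insr the r with gene length was higher within litters than over all libraries, and genotype and sex changes are fitted within litters. Whether transcript length or cell makeup takes part in the litter differences, or in the genotype and sex changes of the receptors, was not tested.

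The genes whose log2 CPM was most like that of a member were sought among 15226 others with a mean of at least 1 CPM over the 14 libraries, which share litters and depth, and are given as a description. For Insr they were Ppp2r3a (r = 0.988), Sec63 (r = 0.986) and Baz2b (r = 0.981), and for Igf1r Zcchc14 (r = 0.980), Syne2 (r = 0.956) and Tiam2 (r = 0.953). For Igf2r they were Pi4ka (r = 0.928), Dido1 (r = 0.895) and Vcan (r = 0.878). For Igfbp2 they were Wdhd1 (r = 0.893), Fkbp10 (r = 0.867) and Col3a1 (r = 0.865), of which Fkbp10 encodes a collagen chaperone and Col3a1 a fibrillar collagen. Fkbp10 (r = 0.862) was also among those of Igfbp4, with Sdhc (r = 0.865) and Col6a2 (r = 0.841). The other members had values between 0.775 and 0.898 at their 3 nearest genes, with Igf1 nearest to AW822252 (r = 0.850), Igf2 to Timm9 (r = 0.839), Igfbp3 to Crim1 (r = 0.898), Igfbp5 to Strada (r = 0.864) and Igfbp7 to Mrm2 (r = 0.844).

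None of the 10 genes differed between the sexes at an FDR under 0.05, where 12 of 17927 genes (0.0669%) did. In the same model, Igf1r was higher in males by 0.13 ± 0.04 on the log2 scale (SE) and Igf2r by 0.07 ± 0.03 (SE), each with an unadjusted p under 0.05 and FDR = 0.927. Over all genes 5.04% had such a p. The means of Igf1r without adjustment for litter and genotype were 91.7 CPM in 6 female and 93.0 CPM in 8 male brains.

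Genes that act beside the family were counted in the same way. Of 86 other genes of IGF signalling in 5 lists, 80 were analysed, none had an FDR under 0.05 for genotype, and 7 had an unadjusted p under 0.05, which is 8.75%, 6 with the higher and 1 with the lower level in Capn15 KO, beside 2.88% and 2.26% of all genes in each direction. Litter passed in 27 of the 80 genes, 33.8%, near the 29.6% of all genes, and sex in 0, beside 0.0669% of all genes.

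Among 5 other ligands, receptors and binding proteins, Igfbp6, a binding protein that prefers IGF2, went from 2.51 ± 0.534 to 3.34 ± 1.06 CPM (SD, n = 7 each), a log2 fold change of 0.38 ± 0.16 (SE; FDR = 0.935). Its level per length, 2.63 CPM per kb, was far below that of Igfbp2. Among 14 IGFBP proteases and protease inhibitors none had an unadjusted p under 0.05, and litter passed in 7, where 29.6% of all genes passed. The highest of these per length were Ctsd, the lysosomal protease cathepsin D, at 72.2 CPM per kb and Ide, the insulin-degrading enzyme, at 15.7 CPM per kb.

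Among 27 receptor substrates and PI3K-AKT genes, Sos1, the exchange factor that couples receptors to Ras, had the smallest p, with 60.3 ± 5.25 CPM in WT and 65.2 ± 2.17 CPM in Capn15 KO (SD, n = 7 each) and a log2 fold change of 0.14 ± 0.04 (SE; FDR = 0.466). Akt1, a kinase that carries the signal on from PI3K, was at 65.7 CPM per kb and had a log2 fold change of 0.02 ± 0.02 (SE), without an unadjusted p under 0.05.

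Among 25 mTOR, GSK3 and FOXO genes, 4 had an unadjusted p under 0.05. Bad, a pro-apoptotic protein that AKT phosphorylates, had a log2 fold change of 0.11 ± 0.04 (SE; FDR = 0.760) and was higher in Capn15 KO in 7 of 7 pairs. Rptor, the scaffold of mTOR complex 1, had 0.08 ± 0.03 (SE; FDR = 0.935) and Gsk3b, a kinase inhibited by AKT, 0.06 ± 0.03 (SE; FDR = 0.953), while Foxo4, a transcription factor that AKT keeps out of the nucleus, had -0.14 ± 0.06 (SE; FDR = 0.935). Rps6, a ribosomal protein phosphorylated downstream of mTOR, and Gsk3a were the highest of this list per length, at 105.7 and 37.3 CPM per kb, and had log2 fold changes of 0.03 ± 0.03 (SE) and 0.02 ± 0.03 (SE), without an unadjusted p under 0.05.

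Among 9 genes of the Igf2 locus, its imprinted network and Igf2 mRNA binding, Plagl1, an imprinted transcription factor, went from 17.7 ± 2.79 to 19.02 ± 2.79 CPM (SD, n = 7 each), with a log2 fold change of 0.12 ± 0.04 (SE; FDR = 0.765), and it was higher in Capn15 KO in 7 of 7 pairs. Litter passed in 7 of these 9 genes, where the share over all genes was 29.6%. Among the 7 were H19, Plagl1 (FDR = 0.000248) and Cdkn1c, an imprinted inhibitor of the cell cycle (FDR = 0.000406).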

How the data were processed

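RNA-SEQ counts of 14 P2 mouse brains were used. The authors trimmed the reads with Trimmomatic, aligned them to GRCm38 with STAR and counted them per gene, and deposited these counts without normalization. The labels name featureCounts (Subread) and a stranded TruSeq kit, and the study's methods name HTSeq-count and the ScriptSeq kit; the annotation release, the strand setting and the filter on genes are not given in the sources used here. Counts were analysed with edgeR 4.0.16 (quasi-likelihood test, TMM factors, genes with at least 1 count, Benjamini-Hochberg over all genes), with litter and sex from the column names as covariates, in R 4.3.3, and with limma 3.58.1 and DESeq2 1.42.0 as alternatives. Single values were tested by exact permutation of 7 against 7 libraries and correlations with 100000 permutations, all two-sided, in Python 3.11.15 with scipy 1.17.1. Log2 CPM used a prior count of 2. Exon lengths and overlaps came from GENCODE M21, in which 17909 genes were found. The test was tried on simulated counts with 2-fold changes and no litter or sex effects. That trial does not show how it handles changes as small as those of the listed genes.

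Same-numbered brains share a litter by the column names. Their deviations from the group means correlated between -0.467 and 0.443, and 4 of 7 pairs were over 0.1. No 2 libraries agreed within sampling noise, with a smallest chi-square of 4.66 per gene. The labels do not say more of how the brains were sampled, so p-values measure the spread between them. Counting error treats PCR copies as separate molecules and so covers the reads only.

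The members, gene lists and tests were chosen with earlier results of these data known. Genes named beside the 10 members are Capn15, those of each pathway list with an unadjusted p under 0.05 (at most 6) or the 2 highest per kb, the 2 highest choroid plexus markers, and the 3 genes most like each member. The values of 1 gene that this rule names are not reported here. Ptgds was named after its value was seen. No column of values was left unused. Ins1, Ins2, Igfbp1, Igfals, Gh and Mmp7 were not analysed here.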

Additional observations from a re-analysis of the deposited data

Results flagged for a closer look

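Igfbp4 was set apart in the Capn15 KO group by 1 library. Capn15 KO 2 had 74.9 CPM and the next highest 66.5 CPM, a gap of 0.615 of the group's range on the log2 scale. Without this library the log2 fold change of Igfbp4 was -0.07, with an unadjusted p above 0.05. Capn15 was set apart in both groups by litter F, with WT 7 at 18.7 CPM and the next WT library at 25.0 CPM (a gap of 0.761 of the range), and Capn15 KO 7 at 20.2 CPM and the next at 14.5 CPM (0.647 of the range). Of 22 groups of 7 libraries examined, 3 had such a gap, and chance gives about 1 in 20, or 1.1 of 22.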

How the results depend on the processing

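The 10 genes had no call for genotype in any of 25 alternative fits, and no call for sex. The replicate block in place of litter, which pairs same-numbered brains, left 0 of the 10 genes called and 0 of all genes, beside 1 with litter; it changed no call of a member, and Igfbp2 had a log2 fold change of -0.12 with the block. The count over all genes was also 0 with library totals alone, 2 without sex, 34 in the likelihood ratio test, 17 in DESeq2 and 7 without litter F, and it lay between 0 and 7 when each library was left out, with 6 without WT 7 and 7 without Capn15 KO 7. The 10 genes were called for litter in 2 to 3 cases when each library was left out, Insr and Igf1r always, and 2 without litter F. Igf2r lost its call without WT 1, WT 2, WT 3, WT 7, Capn15 KO 1, Capn15 KO 3, Capn15 KO 4 or Capn15 KO 7, with FDR up to 0.142. Of 250 refitted log2 fold changes, 237 kept their sign, but fits without either brain of litter A, C, D, E or F nearly repeat each other. The sign turned for 2 genes near 0, Igf1 (between -0.061 and 0.075) and Igfbp7 (between -0.034 and 0.053) when each library was left out, and Igfbp7 was -0.0021 with upper quartile factors. The causes were not tested. Igf1r had an unadjusted p under 0.05 in 22 of 25 fits. The correlations, litter means and choroid plexus counts without litter F were added after seeing the data.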
